A study of Homo sapiens with 12 samples.

Results

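Wild-type HCT116 cells were compared between an initial harvest and a final harvest taken after 2 months of culture, to describe which transcripts drift when the line is simply kept growing. The comparison uses the 3 wild-type libraries labelled for the initial time and the 3 labelled for the final time, chosen by genotype and time label, and these are 6 of the 12 libraries of the series. HCT116 is an epithelial line from a human colon carcinoma that lacks a working mismatch repair system and retains a functional p53 pathway. The other 6 libraries are an MTHFD2 knock-out, also harvested at both times. That knock-out is 1 CRISPR-Cas9 clone, so its libraries are replicates of a clone. They are used here to ask whether a wild-type change was also seen there. They also enter the test of the wild type, because all 12 libraries share 1 estimate of the spread per gene. No drug or transgene is named for any group, all cells grew in the same serum-containing medium, and each group has 3 replicates described as biological. Poly-A RNA was sequenced, and the values are read counts per gene.

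A cell line in continuous culture is a dividing population, and each harvest reads the average transcript level over that population at 1 moment. There was 1 harvest per time for each replicate, and no time between them was sampled. Time in culture and anything else that differed between the initial and the final harvest therefore cannot be told apart. In bulk RNA, fewer cells that express a gene and less RNA per cell also cannot be told apart.

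Library totals ran from 39226346 to 39797510 counts in the 6 wild-type libraries. MTHFD2, the gene targeted in the other genotype, stood at 413 ± 41.2 CPM (counts relative to the library total, scaled with TMM factors that balance library composition) at the initial harvest and at 355 ± 32.4 CPM at the final harvest (SD, n = 3), and both knock-out groups stood at 137 CPM. Of 8 epithelial markers of colon lines, 6 could be tested and 0 were called, and their summed level was 2620 to 3230 CPM initially and 3060 to 3200 CPM finally. CEACAM5 was at 3 counts or fewer in every wild-type library. Immune markers summed to at most 1.82 CPM and endothelial markers to at most 2.98 CPM, with CD3E at 0 in all 6 libraries and CDH5 at 3 counts or fewer. Fibroblast markers summed to 56.8 to 69.8 CPM initially and to 60.3 to 78.8 CPM finally, with DCN and LUM at 0. Counts from the mitochondrial genome took 8.06%, 6.46% and 8.58% of the initial libraries and 13.8%, 10.9% and 9.53% of the final libraries. The initial replicates 1 and 2 deviated in opposite directions with gene length. The shortest sixth of the genes lay 0.152 (log2) under the group mean in replicate 1 and 0.156 above it in replicate 2.

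Over 2 months, 558 genes rose and 625 fell, and most of these changes were modest. Genes were tested with edgeR's quasi-likelihood test, and a gene was called at a Benjamini-Hochberg adjusted p under 0.05. This gave 1183 called genes, or 6.47% of the 18289 tested (3.05% higher and 3.42% lower). Among called genes the median absolute log2 fold change (the log2 of the final over the initial level) was 0.56. Only 233 called genes, or 1.27% of those tested, changed by at least 2-fold, 123 of them higher and 110 lower. The median log2 fold change of all genes tested was 0.00565. The initial and the final libraries did not overlap in 22.2% of all genes tested, and in 1174 of the called genes. Protein-coding genes were called more often (7.48% of 13787) than lincRNA genes (4.95% of 989) and antisense genes (3.22% of 1336), and no test was made of that difference. The number called depended on the libraries: it was 627 without the final replicate 3, 637 without the final replicate 2 and 671 without the initial replicate 3. Fitting the 6 wild-type libraries alone gave 578 genes, all of them among the 1183.

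**Figure D1:**
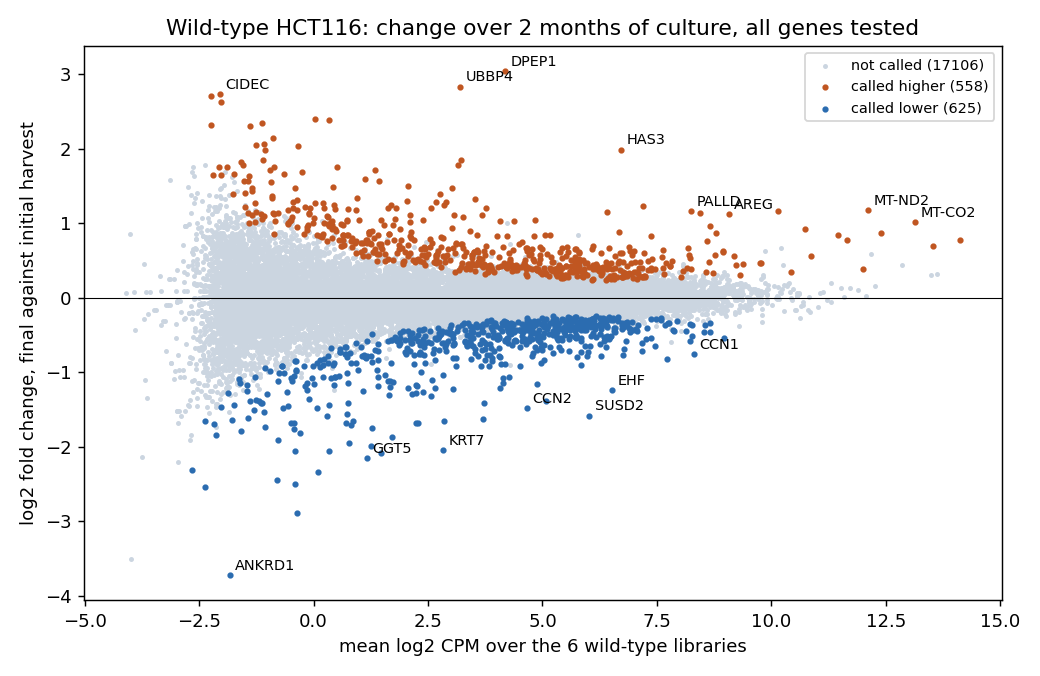
Each point is 1 of the 18289 genes tested, at its mean log2 CPM over the 6 wild-type libraries and its log2 fold change between the final and the initial harvest. The 558 genes called higher (orange) and the 625 called lower (blue) mostly lie within 1 log2 unit of 0, while DPEP1, HAS3, ANKRD1 and KRT7 stand further out.

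The genes raised most include an epithelial hyaluronan synthase, intestinal surface proteins and a transcription factor of the gut. HAS3 (chromosome 16, 69105653 to 69118719, GRCh38), which makes hyaluronan at the plasma membrane, had 52.3, 55.9 and 50.2 CPM in the initial libraries and 242, 188 and 199 CPM in the final libraries. The log2 fold change of HAS3 was 1.99 (SE 0.0947, adjusted p 5.9e-09). Groups that do not overlap were a condition for naming the 12 genes raised most and the 12 lowered most. DPEP1 (chromosome 16, 89613308 to 89638456), a membrane dipeptidase that cleaves cysteinyl-glycine, had 6.25, 5.93 and 6.91 CPM initially and 59.9, 49.6 and 47.8 CPM finally, the highest log2 fold change of the named genes above the abundance minimum (3.04, SE 0.147). HNF4A (chromosome 20, 44355700 to 44434596), a nuclear receptor that drives enterocyte and hepatocyte programmes, had 6.01, 8.7 and 7.23 CPM initially and 16.8, 19.4 and 18.6 CPM finally. Its log2 fold change was 1.32 (SE 0.12, adjusted p 6.65e-06). The transmembrane mucin MUC13 went from 1.24 ± 0.346 to 3.73 ± 0.623 CPM (log2 fold change 1.59, SE 0.211). ANXA10, a calcium-dependent phospholipid-binding protein of gastric epithelium, went from 4.88 ± 0.783 to 17.6 ± 0.639 CPM (log2 fold change 1.85). EPS8L3, an actin regulator related to EPS8, went from 1.37 ± 0.294 to 4.5 ± 0.481 CPM. The remaining genes of the 12 raised most were UBBP4, PKIB (an inhibitor of protein kinase A), ZNF804A, TMEM150C, the axonemal dynein DNAH2 and the laminin chain LAMA4, with log2 fold changes from 1.39 in LAMA4 to 2.83 in UBBP4. UBBP4 is a polyubiquitin pseudogene whose reads may be shared with UBB. UBB stood at 264 ± 51.8 CPM initially and 321 ± 26.8 CPM finally and was not called.

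The genes lowered most include simple-epithelium keratins, a leaky claudin, secreted binding proteins and feedback inhibitors. KRT7 (chromosome 12, 52232520 to 52252186), a keratin of simple epithelia, had 12.2, 16.6 and 14.2 CPM in the initial libraries and 3.45, 3.75 and 3.23 CPM in the final libraries. The groups were far apart, with a log2 fold change of -2.04 (SE 0.123, adjusted p 1.08e-07). KRT80, from the same keratin cluster, had 20, 26.9 and 22.2 CPM initially and 7.6, 7.92 and 6.85 CPM finally (log2 fold change -1.63, SE 0.124). CLDN2 (X chromosome, 106900164 to 106930861), a tight-junction claudin that forms cation pores, had 8.2, 8.38 and 9.06 CPM initially and 2.63, 2.89 and 2.48 CPM finally. Its log2 fold change was -1.68 (SE 0.126, adjusted p 8.91e-07). SUSD2 (chromosome 22, 24181487 to 24189106), a membrane protein with a sushi domain, had 128, 94.9 and 118 CPM at the start and 46.6, 36.2 and 31.4 CPM at the end (log2 fold change -1.58, SE 0.143). IGFBP3, which binds insulin-like growth factors in the medium, went from 5.66 ± 0.848 to 1.34 ± 0.217 CPM. LCN2, a siderophore-binding protein induced by inflammation, went from 6.22 ± 0.246 to 1.7 ± 0.293 CPM, and the neural adhesion molecule NCAM1 from 12.8 ± 2.05 to 4.06 ± 0.561 CPM. GGT5 (a gamma-glutamyl transferase), the chloride channel BEST1, the cytidine deaminase APOBEC3G, SMAD7 and CCN2 complete the 12, with log2 fold changes from -2.15 in GGT5 to -1.48 in CCN2. All 24 genes of both groups were called in every alternative run, and 13 of the 24 have an annotated gene on the other strand whose reads are not separated if the counting ignored strand.

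**Figure D2:**
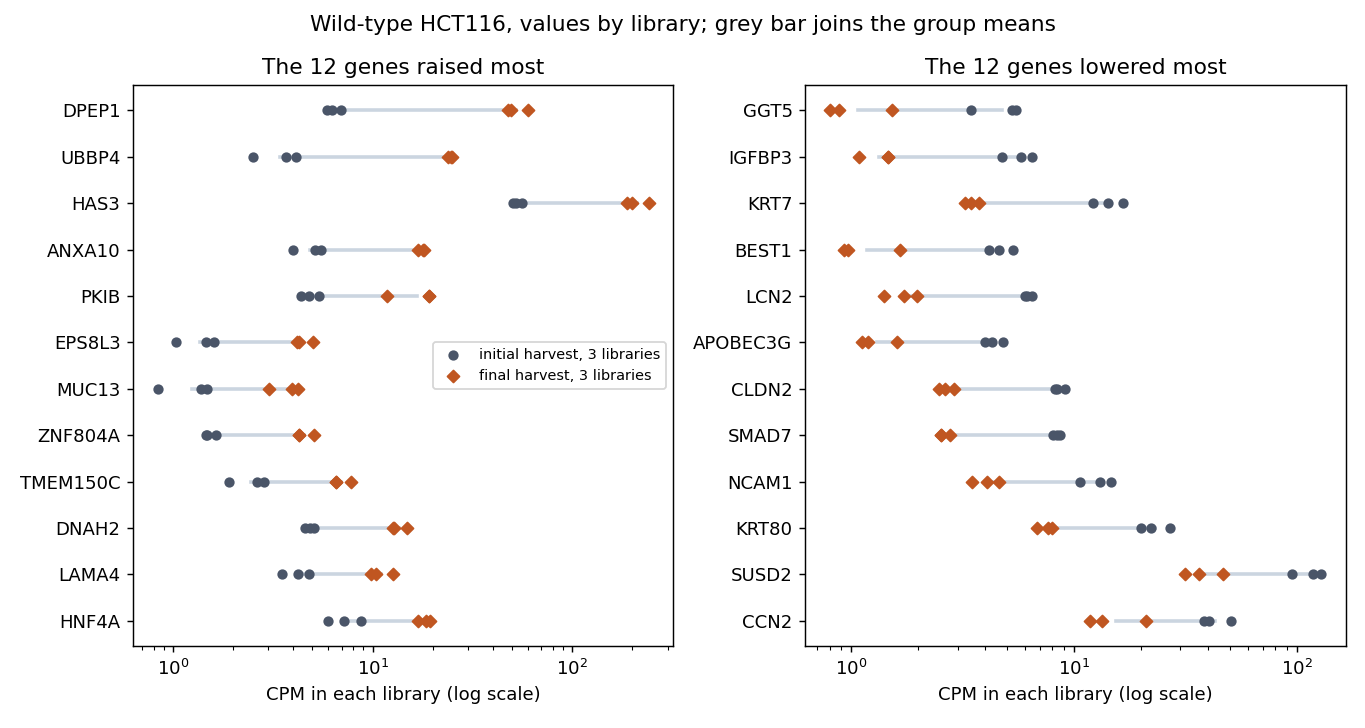
CPM (log axis) in each wild-type library for the 12 genes raised most (left) and the 12 lowered most (right), circles for the initial and diamonds for the final harvest. The 24 genes were chosen among those whose groups do not overlap, so the separation of the values follows from the choice. HAS3 is at 188 to 242 CPM against 50.2 to 55.9.

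Some transcripts moved to or from the detection floor, taken as 3 counts or fewer in every library of a group. ANKRD1, a nuclear ankyrin-repeat protein, had 24, 35 and 30 counts initially and 1, 3 and 2 counts finally. Its initial mean was 9.29 times the floor of 3 counts per library (fitted log2 fold change -3.72, SE 0.377). ADGRL2, an adhesion receptor of the latrophilin family, had 12, 15 and 12 counts initially and 3, 1 and 2 finally. Its initial mean was 4.07 times the floor (log2 fold change -2.54, SE 0.523). CIDEC, a lipid droplet protein, had 3, 2 and 3 counts initially and 16, 17 and 19 finally. Its final mean was 6.16 times the floor (log2 fold change 2.73, SE 0.38). DESeq2 did not call CIDEC and ADGRL2, and ADGRL2 was not called without the final replicate 2. At the other end of the range, the called genes with the highest CPM (not corrected for length) that fell were the ephrin receptor EPHA2 (603 ± 42.1 to 416 ± 65.4 CPM), the condensin subunit NCAPD2 (478 ± 36.2 to 349 ± 29.8), the chromatin regulator ANKRD11 (457 ± 21.2 to 362 ± 32.1) and PHGDH (427 ± 19.7 to 332 ± 10.6). When single libraries were left out, the call was lost in 5 of 6 fits for ANKRD11, 3 for PHGDH, 2 for EPHA2 and 1 for NCAPD2. The 4 with the highest CPM that rose, MT-ND4, MT-CO3, MT-CO2 and MT-ATP6, were encoded by the mitochondrial genome.

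Among targets of ATF4 and serine synthesis genes, every member that was called was lower at the final harvest. ATF4 is the transcription factor of the integrated stress response, translated when amino acids run short or the endoplasmic reticulum is stressed, and it drives amino acid transport, serine synthesis and tRNA charging genes. Of 44 members tested, 18 fell, 0 rose and 26 were not called (40.9% called, against 6.47% of all genes). The list median was -0.31, against 0.00565 for all genes. Shares called in other lists, given in brackets, stand against the same 6.47%. Around their start sites, 11 of the 38 members with a RefSeq promoter (GRCh38.p14, 250 bases before to 50 after the start) hold the 8-letter ATF4 and CEBP composite element TGATGNAA on either strand, where 3.62% of 35116 promoters do. Of the 17 called members among them, 5 hold it. The list was written to hold ATF4 targets, so nothing about the fall is read from these counts. Upstream stretches of 4 members that fell are shown because they carry this element, set in capitals.
ASNS, chr7:97872449-97872496, minus strand: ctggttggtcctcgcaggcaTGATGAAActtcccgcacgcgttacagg
CHAC1, chr15:40953242-40953289, plus strand: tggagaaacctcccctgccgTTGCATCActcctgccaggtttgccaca
FGF21, chr19:48755450-48755497, plus strand: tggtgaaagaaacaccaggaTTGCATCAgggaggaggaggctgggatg
HERPUD1, chr16:56931946-56931993, plus strand: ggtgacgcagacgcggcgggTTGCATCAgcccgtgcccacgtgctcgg
A match is a description of these letters and does not show that the factor binds there.

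ASNS, asparagine synthetase, had 21.8, 14.7 and 15.8 CPM in the initial libraries and 9.17, 9.09 and 9.6 CPM in the final libraries (log2 fold change -0.91, SE 0.154, adjusted p 0.00176). The final values were tight and all lay under the lowest initial value. CHAC1, which degrades glutathione, had 33.1, 53.4 and 42.1 CPM initially and 21.6, 24 and 24.7 CPM finally, with no overlap (log2 fold change -0.87, SE 0.14, adjusted p 0.0012). The pro-apoptotic factor DDIT3, also called CHOP, went from 25.8 ± 3.46 to 12.3 ± 3.67 CPM, and the mTORC1 inhibitor DDIT4 from 186 ± 34.5 to 113 ± 7.43 CPM. JDP2, a basic leucine zipper repressor, had 25.6, 33.5 and 27 CPM initially and 17.7, 18.6 and 18.1 CPM finally (log2 fold change -0.66, adjusted p 0.000823). The glycoprotein hormone STC2 had 176, 190 and 173 CPM initially and 138, 102 and 113 CPM finally. PCK2, the mitochondrial phosphoenolpyruvate carboxykinase, had 24.4, 26.7 and 25.2 CPM initially and 18.2, 17.2 and 16.3 CPM finally, and neither gene's groups overlapped. PHGDH, the first enzyme of serine synthesis, fell with a log2 fold change of -0.36 (SE 0.0868, adjusted p 0.0187), a call lost in 3 of 6 fits with single libraries left out, while the next enzyme, PSAT1, had -0.28 and was not called (adjusted p 0.0874). NUPR1, FGF21, TRIB3, SLC1A4, SLC6A9, HERPUD1, ULBP1, CEBPG, XBP1 and CARS1 were the other called members, with log2 fold changes from -1.39 in NUPR1 to -0.305 in CARS1. The ATF4 transcript itself stood at 453 ± 64.9 CPM initially and 393 ± 12.7 CPM finally and was not called (adjusted p 0.276). The number of members that fell ranged from 12 to 21 when single libraries were left out.

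Transcripts known as targets of YAP and TEAD were mostly lower. YAP is a co-activator held out of the nucleus by the Hippo kinases in dense or soft surroundings, and with TEAD factors it raises matricellular and cytoskeletal genes. Of 20 members tested, 11 fell, 1 rose and 8 were not called (60% called), with a median of -0.355. The TEAD element GGAATG, on either strand, is in 7 of the 16 members' promoters that could be matched and in 14% of all promoters. Of the 8 called members among them, 4 hold it. This list was also made of known targets, so nothing about the fall is read from these counts. CCN2 and ANKRD1, the members that fell furthest, hold 3 and 2 matches upstream of the start, shown in capitals.
CCN2, chr6:131951442-131951561, minus strand: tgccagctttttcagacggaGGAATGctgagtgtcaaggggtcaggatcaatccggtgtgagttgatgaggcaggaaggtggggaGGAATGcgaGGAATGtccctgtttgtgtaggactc
ANKRD1, chr10:90921190-90921327, minus strand: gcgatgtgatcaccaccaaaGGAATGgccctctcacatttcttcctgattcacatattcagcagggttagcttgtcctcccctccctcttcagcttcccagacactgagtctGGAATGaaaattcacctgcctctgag

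CCN2, a secreted matricellular protein, had 50.6, 40.1 and 38.4 CPM in the initial libraries and 21.1, 13.4 and 11.8 CPM in the final libraries (log2 fold change -1.48, SE 0.183, adjusted p 0.000115). The final replicate 1 was the highest of the final libraries and still lay under every initial library. The related CCN1 had 475, 422 and 363 CPM initially and 331, 225 and 189 CPM finally (log2 fold change -0.76, SE 0.178, adjusted p 0.0166). AMOTL2, an angiomotin that binds YAP, had 94.5, 108 and 105 CPM initially and 67.9, 58 and 52.8 CPM finally, with a log2 fold change of -0.78 (SE 0.0931, adjusted p 8.94e-05). The Hippo kinase LATS2, itself induced by YAP, went from 28 ± 1.09 to 22.5 ± 1.37 CPM. NUAK2, CRIM1, AJUBA, AXL, ARHGEF17 and ASAP1 fell by 0.29 to 0.70 on the log2 scale. The exception was NT5E, the ecto-nucleotidase CD73, which had 116, 89.5 and 110 CPM initially and 151, 136 and 147 CPM finally (log2 fold change 0.46, SE 0.0968). F3, MYOF and AMOTL1 had log2 fold changes of 0.07, 0.0063 and 0.03 and were not called. Without the final replicate 2 or the final replicate 3, 7 members fell, and CCN1 was not called in either case.

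Feedback regulators downstream of MAPK and TGF-beta signalling fell in part, while epidermal growth factor ligands moved both ways. Among 23 MAPK feedback genes and EGFR ligands, 6 fell and 2 rose (34.8% called, median -0.17). AREG, an EGFR ligand, had 295, 416 and 391 CPM initially and 852, 761 and 788 CPM finally (log2 fold change 1.12, SE 0.112, adjusted p 1.59e-05), and its groups were far apart. TGFA, another ligand, went from 80.1 ± 1.17 to 105 ± 6.48 CPM, and the ligand EGF from 1.63 ± 0.157 to 0.889 ± 0.237 CPM. The Sprouty genes, which restrain receptor tyrosine kinases, were lower: SPRY4 had 267, 253 and 280 CPM initially and 212, 193 and 189 CPM finally, and SPRY1 and SPRY2 had log2 fold changes of -0.56 and -0.39. The ephrin receptors EPHA2 and EPHA4 were the other members that fell. This count was 1 without the final replicate 2 and 1 without the final replicate 3, and it was 3 without the initial replicate 1.

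Of 22 immediate early genes, 4 fell (CCN2, EGR3, CCN1 and JUN) and JUND rose (22.7% called), with a median of -0.14. EGR3, a zinc-finger factor induced by serum, had 26.1, 27.2 and 15.5 CPM initially and 14.1, 6.54 and 5.17 CPM finally, so that the lowest initial library lay close to the highest final one. Only CCN2 was called without the final replicate 2 or the final replicate 3 among the members that fell. Of 18 TGF-beta and BMP targets, 4 fell and ID2 rose (27.8% called), and the list median was 0.06. The inhibitory SMAD7 had 8.06, 8.62 and 8.41 CPM initially and 2.77, 2.53 and 2.54 CPM finally (log2 fold change -1.68, SE 0.128, adjusted p 9.21e-07). The related inhibitor SMAD6 had 16, 14.6 and 16.5 CPM initially and 9.61, 9.51 and 8.38 CPM finally (log2 fold change -0.775, SE 0.0947). Both sets of libraries were narrow and apart. PMEPA1, which sequesters SMADs, went from 1.78 ± 0.258 to 0.966 ± 0.0101 CPM, and ATOH8 from 1.87 ± 0.224 to 1.13 ± 0.226 CPM. The number that fell was 2 without the initial replicate 3, and the calls of ID2 and JUND were lost in 4 of 6 fits with single libraries left out.

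Most of the protein-coding transcripts of the mitochondrial genome rose by the final harvest. The mitochondrial genome codes for 13 subunits of the respiratory chain and ATP synthase, all transcribed from long polycistronic precursors. Of the 13, 9 rose and 0 fell (69.2% called), with a median log2 fold change of 0.84. MT-ND2, a complex I subunit, had 3200, 2480 and 3320 CPM in the initial libraries and 8670, 6360 and 5320 CPM in the final libraries (log2 fold change 1.18, SE 0.161, adjusted p 0.000295). MT-ND3 had 933, 530 and 845 CPM initially and 2010, 1710 and 1470 CPM finally (log2 fold change 1.17, SE 0.175). MT-CO2, of cytochrome c oxidase, had 6710, 5280 and 7320 CPM initially and 15700, 12400 and 10800 CPM finally (log2 fold change 1.01, SE 0.152, adjusted p 0.000656). In each of these the final replicate 1 was highest, the initial replicate 2 was lowest, and the groups did not overlap. MT-CO1 (0.32, adjusted p 0.224), MT-CYB (0.43, adjusted p 0.0785), MT-ND5 (0.59) and MT-ND6 (0.625) had smaller log2 fold changes and were not called. The 43 nuclear-encoded subunits tested gave 0 called genes and a median of 0.099, and 0 of 63 mitochondrial ribosomal proteins were called (median 0.105). Without the initial replicate 2, 1 nuclear subunit and 6 mitochondrial ribosomal genes were called higher, with medians of 0.234 and 0.224, and without the initial replicate 1 the medians were -0.00395 and 0.0102. The spread between libraries was wide: the median member stood at 1.2, 0.73 and 0.51 log2 units above the initial mean in final replicates 1, 2 and 3, and at 0.07, -0.33 and 0.20 in the initial ones. The same order of libraries is in the share of mitochondrial counts given above, and the part of library composition in the difference was not tested. The 6-library fit called 6 of the 13.

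Most of the replication-dependent histone genes tested rose in these poly-A libraries. These genes code for the bulk histones of S phase, and most of their mRNA ends in a stem-loop without a poly-A tail, so a poly-A library reads the minor polyadenylated fraction. Of 13 tested, 8 rose and 0 fell (61.5% called), with a median of 0.925. H2AC6 had 3.96, 3.85 and 4.5 CPM initially and 7.65, 11.4 and 11 CPM finally (log2 fold change 1.29, SE 0.152, adjusted p 8.43e-05). H2BC5 had 1.86, 2.84 and 3.33 CPM initially and 4.83, 7.48 and 7.35 CPM finally (log2 fold change 1.29, SE 0.2). The linker histone H1-2 had 5.71, 7.49 and 6.66 CPM initially and 10.7, 10.6 and 11.9 CPM finally (log2 fold change 0.74, SE 0.119). In all 3 genes the final libraries lay above the initial ones, but all the levels are low, and reads of near-identical histone copies may be assigned to the wrong copy. The count was 5 without the initial replicate 1, without the final replicate 2 or without the final replicate 3. Among genes of DNA replication, 1 of 46 was called (2.17%), the ligase LIG1, lower (126 ± 9.78 to 98.4 ± 7.28 CPM). Of 54 mitosis genes, 2 were called (3.7%), the phosphatase CDC25C and the kinesin KIF18A, both lower. With so few calls in each list, nothing is read from the distance to the 6.47% of all genes. LIG1 was lost in 2 of 6 fits with single libraries left out, CDC25C in 3 and KIF18A in 4. The list medians were -0.08 and -0.09, and that of the replication genes was 0.0605 without the initial replicate 2. Of the mitosis genes, 4 fell without the initial replicate 1, 5 fell without the final replicate 1, 5 fell and 1 rose in DESeq2, and 8 fell and 2 rose after trends on gene length and GC content were removed. The proliferation marker MKI67 stood at 971 ± 10.4 CPM initially and 826 ± 63.1 CPM finally and was not called (adjusted p 0.126).

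Genes of cholesterol synthesis were higher, without one that fell. These enzymes are induced together by SREBP2 when membrane sterol is low. Of 25 members tested, 11 rose and 14 were not called (44% called), with a median of 0.40. A positive log2 fold change was seen in 24 of the 25. HMGCS1, which makes HMG-CoA, had 94.8, 90.8 and 98.1 CPM in the initial libraries and 145, 145 and 163 CPM in the final libraries (log2 fold change 0.68, SE 0.0799, adjusted p 8.15e-05). INSIG1, the sterol-regulated anchor of SREBP, had 80.2, 74.2 and 82.5 CPM initially and 108, 117 and 124 CPM finally (log2 fold change 0.56, SE 0.0769). IDI1, the isopentenyl isomerase, had 56.2, 52.4 and 53.4 CPM initially and 74.2, 92.1 and 95.5 CPM finally (log2 fold change 0.69, SE 0.111). The groups did not overlap in any of the 3 genes. FDFT1, MSMO1, MVD, NSDHL and DHCR7 were also among the 11, with log2 fold changes of 0.40 to 0.57. The SREBP element TCACNCCAC was in 1 of the 18 matched member promoters, that of SREBF2, and in 1.13% of all promoters. It was in 0 of the 7 called members among the matched ones. The count was 6 without the initial replicate 3 or without the final replicate 3, 7 without the final replicate 1, and 5 in the fit of 6 libraries.

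In fatty acid synthesis, 3 of 11 members rose and 0 fell (27.3% called, median 0.22). FASN, the fatty acid synthase, had 1260, 1800 and 1550 CPM initially and 2450, 2180 and 2180 CPM finally (log2 fold change 0.56, SE 0.12, adjusted p 0.00902). The desaturase SCD, with 3600 ± 238 and 4720 ± 455 CPM, and the malic enzyme ME1, with 96.9 ± 5.22 and 123 ± 13.1 CPM, were near the threshold. With single libraries left out, the call was lost in 5 of 6 fits for SCD and in 4 of 6 for ME1, and the fit of 6 libraries called none of the 3.

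Most of the p53 targets tested were not called, and those that were called rose. p53 halts the cycle and can trigger apoptosis after DNA damage, and its targets include inhibitors of the cycle and death receptors. Of 33 members tested, 5 rose, 0 fell and 28 were not called (15.2% called), with a median of 0.26 and 30 positive values. CDKN1A, the p21 inhibitor of cyclin-dependent kinases, had 140, 181 and 166 CPM in the initial libraries and 224, 254 and 232 CPM in the final libraries (log2 fold change 0.54, SE 0.108, adjusted p 0.00589). The death receptor FAS had 25.2, 19.9 and 24.3 CPM initially and 36.3, 30.7 and 32.3 CPM finally (log2 fold change 0.52, SE 0.106). SPATA18, a mitochondrial quality protein, had 0.342, 0.247 and 0.501 CPM initially and 1.38, 1.46 and 1.63 CPM finally (log2 fold change 2.03, SE 0.296). The final values were higher in all libraries for these genes. TP53INP1 and SESN1 were the other members that rose. MDM2, the ligase that degrades p53, had a log2 fold change of 0.07 (adjusted p 0.725), and BBC3 had 0.305 (adjusted p 0.19). The count moved with the setting: it was 9 without the initial replicate 2 or without the final replicate 1, 3 without the initial replicate 3 or without the final replicate 2, 10 in DESeq2, 1 under a test against a 1.2-fold change, and 13 after trends on gene length and GC content were removed, where 1 member fell. The median stayed between 0.187 and 0.267 when single libraries were left out.

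**Figure D3:**
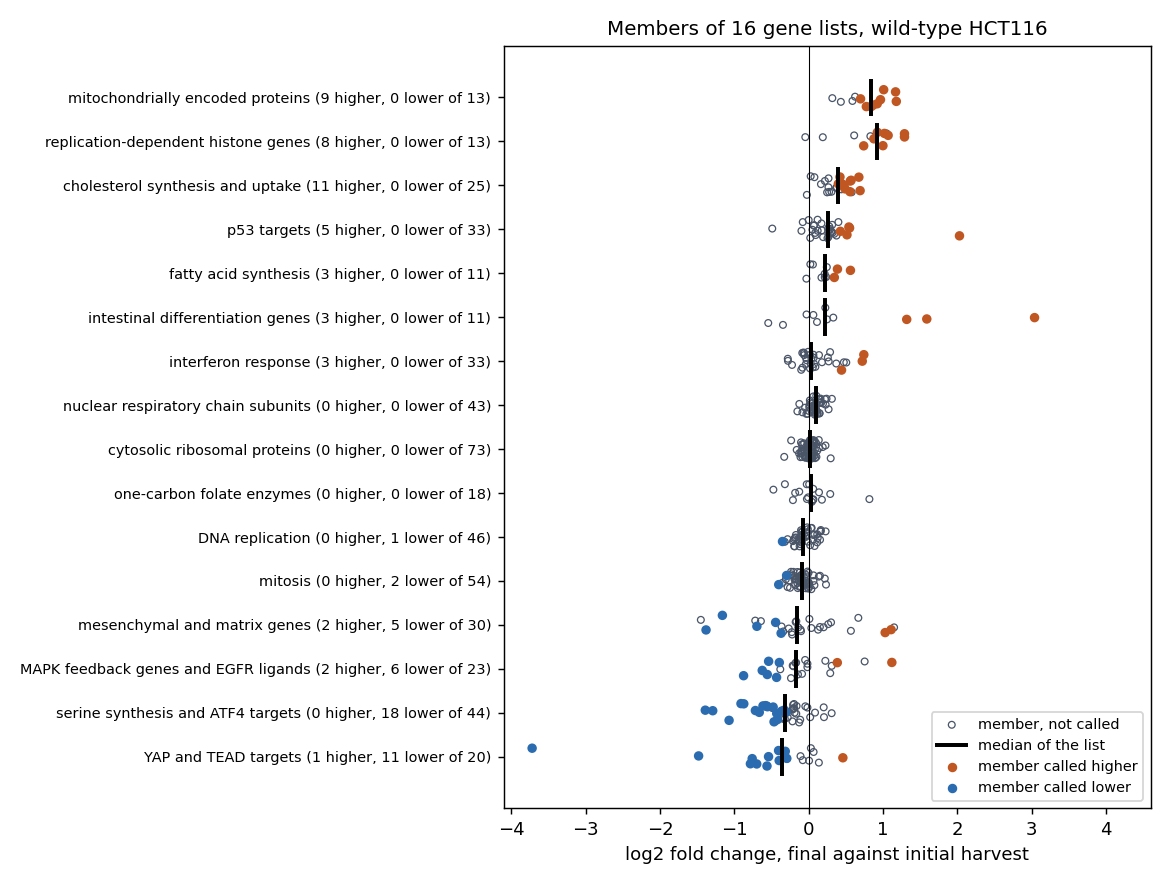
Log2 fold changes of the members of 16 gene lists in the wild type, filled where called and open where not, with the list median as a black bar. Mitochondrially encoded, histone and cholesterol genes lie to the right (medians 0.84, 0.925 and 0.40), ATF4 and YAP targets to the left (medians -0.31 and -0.355), and ribosomal protein, one-carbon and mitosis genes near 0.

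Wnt and NF-kappaB targets moved in both directions. Of 16 Wnt targets, 3 fell and 2 rose (31.2% called), with a median of -0.20. Without the final replicate 1, 5 fell and 2 rose, and in DESeq2 5 fell and 1 rose. NOTUM, a secreted enzyme that inactivates Wnt proteins, had 22.3, 28.2 and 32.9 CPM initially and 13.1, 14 and 12.7 CPM finally (log2 fold change -1.07, SE 0.131, adjusted p 0.000115). The progenitor factor SOX9 went from 180 ± 12.8 to 136 ± 8.39 CPM and the Wnt inhibitor DKK1 from 340 ± 27.9 to 267 ± 15.4 CPM, the latter lost in 3 of 6 fits with single libraries left out. BMP4, a growth factor made by HCT116 cells, had 271, 320 and 305 CPM initially and 499, 521 and 504 CPM finally (log2 fold change 0.77, SE 0.0873), with tight groups far apart. DKK4, another Wnt inhibitor, was called from very few counts (0.0745 ± 0.0433 to 0.474 ± 0.18 CPM), and it was not called by DESeq2 or without the final replicate 3.

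Of 18 NF-kappaB targets, 4 fell and 1 rose (27.8% called, median -0.14). The chemokine CXCL8 had 8.23, 5.58 and 6.78 CPM initially and 3.28, 2.66 and 2.51 CPM finally (log2 fold change -1.29, SE 0.186). LCN2, described above, the cytokine IL32 (1.32 ± 0.402 to 0.385 ± 0.17 CPM) and the inhibitor NFKBIA (log2 fold change -0.35) were the others that fell. ICAM1, a leukocyte adhesion molecule, had 23.5, 17.4 and 20.6 CPM initially and 40.2, 26.4 and 28.3 CPM finally (log2 fold change 0.62, SE 0.144), and it was not called without the initial replicate 3. Of 33 interferon response genes, 3 rose and 0 fell (9.09% called, near the 6.47% of all genes): SAMD9 (18.3 ± 3.48 to 30.7 ± 0.787 CPM), IFI6 (6.83 ± 1.73 to 11.3 ± 1.3 CPM) and the RNA sensor IFIH1 (12.4 ± 0.687 to 16.8 ± 0.647 CPM). The median of that list was 0.04. Of 15 genes of MHC class I presentation (13.3% called), the transactivator NLRC5 and the light chain B2M rose, by 0.41 and 0.31 on the log2 scale. B2M was lost in 4 of 6 fits with single libraries left out, and NLRC5 also in 4.

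Epithelial identity genes were divided. Of 33 adhesion and keratin genes, 3 fell (KRT7, CLDN2 and KRT80, described above) and 2 rose (15.2% called), with a median of 0.06. ELF3, an epithelial ETS factor, had 101, 103 and 106 CPM initially and 177, 151 and 151 CPM finally (log2 fold change 0.63, SE 0.0799, adjusted p 0.000155). EPCAM stood at 406 ± 38.9 and 460 ± 47.4 CPM and CDX2 at 13.4 ± 2.49 and 14.5 ± 1.37 CPM, and neither was called. EHF, an ETS factor related to ELF3, moved against it, with 144, 130 and 150 CPM initially and 60.1, 58.9 and 60.7 CPM finally (log2 fold change -1.24, SE 0.0775, adjusted p 1.32e-07). Of 38 intestinal differentiation genes listed, only 11 passed the filter on low counts and could be tested. Of these 11, 3 rose (DPEP1, MUC13 and HNF4A) and 0 fell (27.3% called).

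Of 30 mesenchymal and matrix genes, 5 fell and 2 rose (23.3% called, median -0.15). SPARC, a collagen-binding matricellular protein, had 48.7, 37.6 and 47.4 CPM initially and 23.5, 18.1 and 18.3 CPM finally (log2 fold change -1.16, SE 0.113). THBS1, thrombospondin, had 68.8, 51.6 and 46.8 CPM initially and 28.9, 18.7 and 16.6 CPM finally (log2 fold change -1.38, SE 0.18). The groups of both genes were apart, and the membrane protease MMP14 (53.9 ± 5.44 to 33.3 ± 6.03 CPM), PLAU and TIMP2 were also lower. LAMA3, a laminin chain of epithelial basement membranes, had 16.8, 12.5 and 14.6 CPM initially and 35, 27.7 and 27.1 CPM finally (log2 fold change 1.03, SE 0.126). TIMP3, a matrix-bound protease inhibitor, had 5.23, 4.72 and 7.11 CPM initially and 13.6, 11.6 and 11.5 CPM finally (log2 fold change 1.11, SE 0.137). PALLD (chromosome 4, 168497052 to 168928457), the actin-bundling protein palladin, had 197, 202 and 212 CPM initially and 415, 471 and 482 CPM finally (log2 fold change 1.16, SE 0.081, adjusted p 3.31e-07). The count that fell was 3 without the final replicate 2 or without the final replicate 3. The fibroblast marker COL3A1 was called lower from 1.32 ± 0.491 to 0.582 ± 0.279 CPM, so that 1 of the 3 fibroblast markers tested was called. The part of other cells in these matrix genes was not tested. DCN and LUM were at 0 in every wild-type library, but the 8 fibroblast markers together reached the sums given above, 56.8 to 69.8 CPM initially and 60.3 to 78.8 CPM finally.

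Of 33 hypoxia and glycolysis genes tested, 3 rose and 3 fell (18.2% called), with a median of 0.10. The number that rose was 6 without the final replicate 1, 5 without the initial replicate 3 and 7 with no filter on low counts, and 3 fell in each of these. The carbonic anhydrase CA9 had 0.44, 0.272 and 0.951 CPM initially and 2.52, 2.79 and 3.39 CPM finally (log2 fold change 2.39, SE 0.342, adjusted p 0.000441). NDRG1, a stress-induced gene, had 108, 111 and 158 CPM initially and 196, 224 and 250 CPM finally (log2 fold change 0.83, SE 0.142). The glucose transporter SLC2A1 had 420, 361 and 408 CPM initially and 732, 551 and 560 CPM finally (log2 fold change 0.63, SE 0.112). Against these, the glucose transporter SLC2A3 went from 8.96 ± 2.89 to 4.16 ± 0.0845 CPM, the neuronal enolase ENO2 from 106 ± 8.18 to 67.1 ± 3.2 CPM and the angiogenic factor VEGFA from 146 ± 4.03 to 108 ± 8.75 CPM. All 6 genes had groups that did not overlap.

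In the insulin-like growth factor axis, 4 of 13 members fell and 1 rose (38.5% called). IGFBP3, IGFBP5 (3.99 ± 1.02 to 1.75 ± 0.228 CPM), STC2 and STC1 were lower. STC1, a stanniocalcin that inhibits the IGFBP protease PAPP-A, had 1.56, 0.988 and 1.5 CPM initially and 0.0543, 0.182 and 0.491 CPM finally (log2 fold change -2.45, SE 0.412). The adaptor IRS1 had 172, 165 and 184 CPM initially and 219, 234 and 232 CPM finally (log2 fold change 0.39, SE 0.0718, adjusted p 0.00307). Among 12 genes of glutathione breakdown (33.3% called), DPEP1 and CHAC2 (6.1 ± 1.03 to 8.87 ± 1.17 CPM) rose and GGT5 and CHAC1 fell. CHAC2 was lost in 4 of 6 fits with single libraries left out. Of 20 genes of the unfolded protein response, EDEM1, CREB3L2 and DNAJB9 fell and SEC24D rose (20% called). EDEM1, which sends misfolded glycoproteins to degradation, went from 82.3 ± 13.9 to 52.5 ± 2.91 CPM. Of 12 cytosolic heat shock genes (16.7% called), HSPA4L and HSPH1 rose, by 0.45 and 0.28 on the log2 scale. HSPH1 was lost in 4 of 6 fits with single libraries left out, SEC24D in 4 and DNAJB9 in 3. Of 22 NRF2 targets 9.09% were called, also near the share of all genes: the haem oxygenase HMOX1 (19.9 ± 3.61 to 31.5 ± 1.9 CPM) and ME1 rose.

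Of the 34 lists, 7 had no member called. Among them were 73 cytosolic ribosomal proteins (median 0.02), 18 one-carbon folate enzymes (median 0.03), 26 lysosome and autophagy genes (median 0.06), 5 metallothioneins (median -0.13) and 3 cancer-testis antigens (median 0.07), besides the nuclear respiratory subunits and mitochondrial ribosomal proteins. In the one-carbon list, to which MTHFD2 belongs by function, the folate carrier SLC19A1 (adjusted p 0.135) and the synthetase MTHFD1L (adjusted p 0.155) came nearest. MTHFD1L had 146, 171 and 154 CPM initially and 138, 133 and 137 CPM finally, so its groups did not overlap although it was not called. A p above the threshold does not show that these genes were unchanged.

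The knock-out clone was followed over the same 2 months, so each wild-type change has a value there to set beside it. The time comparison of the knock-out called 270 genes (1.48% of those tested). The wild-type and the knock-out time comparisons set different libraries against each other, but share the spread estimated from all 12 libraries. In both, 119 genes were called, which is 10.1% of the wild-type and 44.1% of the knock-out calls. Of these 119, 101 moved in the same direction. The knock-out change had the sign of the wild-type change in 71.4% of the genes called in the wild type and in 56.7% of all genes tested. Its median was 0.17 over the genes that rose in the wild type and -0.11 over those that fell. Whether the change differed between genotypes was tested with the interaction term of the same edgeR fit, which called 235 genes (1.28%). That number was 444 without the wild-type initial replicate 2, 135 without the initial replicate 3 or without the final replicate 2, and 144 without the final replicate 3. Of the 24 genes named for the largest fold changes, 16 passed that test, but it uses the same wild-type libraries that chose them, so nothing is read from that number.

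HNF4A stood at 11.2 CPM initially and 9.26 CPM finally in the knock-out (interaction adjusted p 9.79e-05), and HAS3 rose there from 24.5 to 45.3 CPM, a log2 fold change of 0.88 against 1.99 in the wild type (interaction adjusted p 0.000264). NCAM1 moved in opposite directions: in the knock-out it rose from 56 to 103 CPM (log2 fold change 0.88), while it fell in the wild type (interaction adjusted p 1.46e-06). CAPN6, a calpain without protease activity, fell in the wild type from 4.88 ± 0.772 to 1.97 ± 0.417 CPM and rose in the knock-out from 4.45 to 17.4 CPM (interaction adjusted p 1.26e-06). EHF was 72.4 CPM initially and 74.5 CPM finally in the knock-out (interaction adjusted p 1.49e-05), and PALLD was 31.5 and 31.4 CPM (interaction adjusted p 4.6e-05). Other changes were seen in both genotypes: IGFBP3 fell from 5.06 to 1.51 CPM in the knock-out (log2 fold change -1.74, adjusted p 1.94e-05), and APOBEC3G from 6.01 to 2.2 CPM (log2 fold change -1.45, adjusted p 4.16e-05).

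For some gene groups, the knock-out medians and calls are set beside those of the wild type. These groups were picked with results of these data known. In cholesterol synthesis the knock-out median was 0.29 with 3 members called higher, against 0.40 and 11 in the wild type, and no member passed the interaction test. HMGCS1 rose in the knock-out by 0.72 on the log2 scale, close to its wild-type value of 0.68. For YAP and TEAD targets the knock-out median was -0.24 with 3 members lower, and ANKRD1, CRIM1 and F3 passed the interaction test. For ATF4 targets it was -0.10 with 1 member lower (DDIT3), and 0 of 44 members passed the interaction test. For mitochondrially encoded genes it was 0.37, with MT-ND2 called, and 0 of 13 passed. For p53 targets it was -0.05. Each list's difference between genotypes was not tested as a whole. Circadian clock genes showed the reverse order. In the wild type 3 of 17 fell (HLF, PER2 and CRY1, 17.6% called, list median -0.03), while 7 fell and 1 rose in the knock-out (median -0.46). PER2 fell by 0.34 on the log2 scale in the wild type and by 1.2 in the knock-out (interaction adjusted p 0.000603). The wild-type calls of PER2 and CRY1 were lost in 4 of 6 fits with single libraries left out, and that of HLF in 5.

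**Figure D4:**
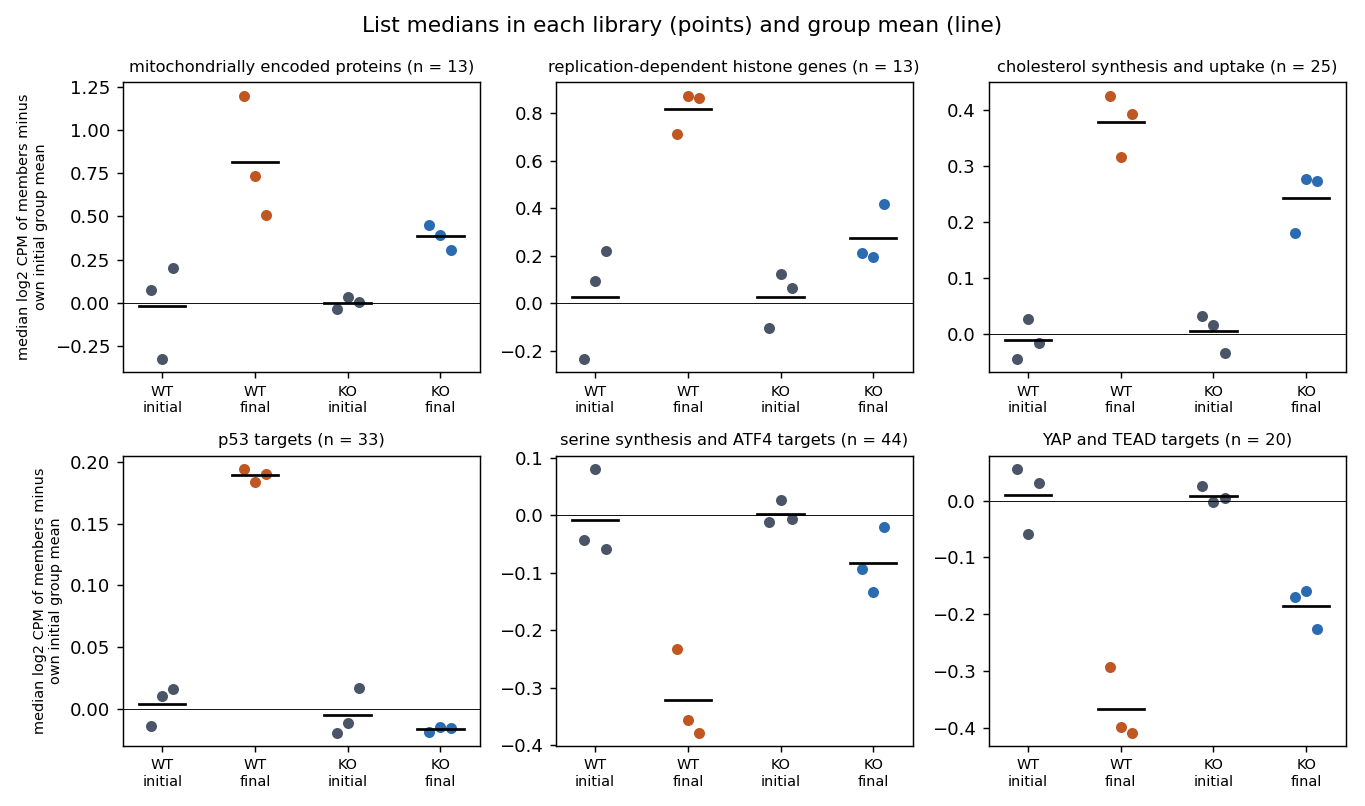
For 6 gene lists, the median over members of log2 CPM minus the mean of the same genotype's initial libraries, 1 point per library and a line for the group mean. Final wild-type libraries lie apart from initial ones in all 6 lists, and the final knock-out libraries lie nearer to 0, with p53 targets between -0.0188 and -0.0145. The 6 were picked from the 34 lists with results of these data known. Both the separation and the smaller knock-out shift can therefore follow in part from the choice.

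**Figure D5:**
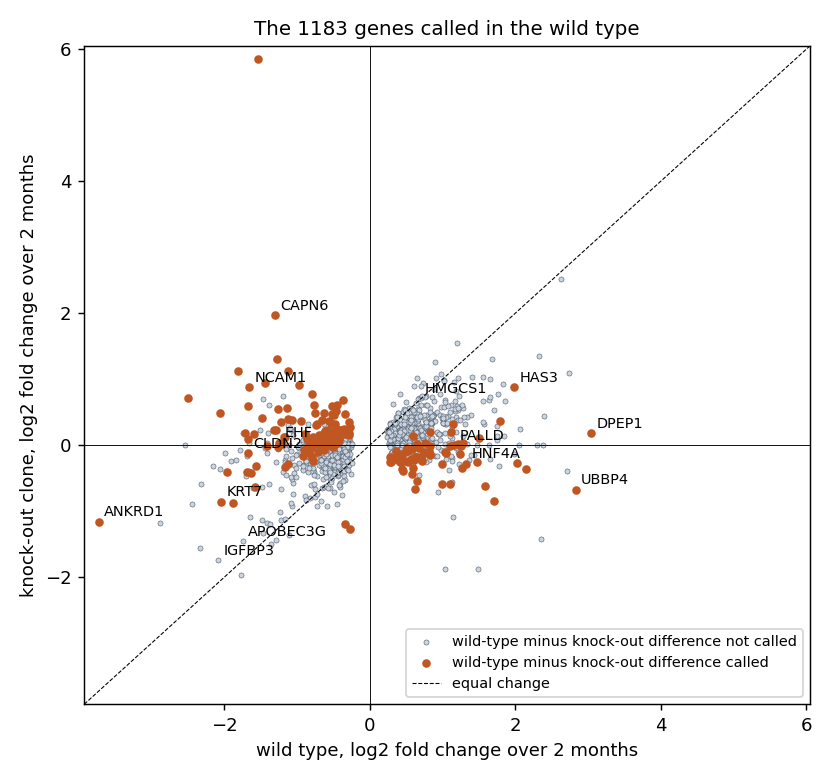
Log2 fold change over 2 months in the wild type (x axis) and in the knock-out clone (y axis) for the 1183 genes called in the wild type, orange where the difference between genotypes was called. Points on the dashed line changed equally, as HMGCS1 and IGFBP3 nearly did, while DPEP1, PALLD and EHF lie near the horizontal axis.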

How the data were processed

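Values are raw counts per gene in 1 table of 12 libraries, as deposited by the authors, in the column layout that featureCounts writes, per the file headers. STAR, featureCounts and Subread and the build hg38 are named in the submitters' processing notes, without versions. Strandedness, the annotation release and the handling of multi-mapping reads are not given in the sources used here. The 5 lines over which 1 gene was broken were left out, leaving 60648 genes. Of these, 60506 had a symbol, and the 37318 IDs with the same version in GENCODE 29 had identical coordinates.

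Counts were filtered with filterByExpr by group, scaled with TMM and modelled by quasi-likelihood with edgeR 4.0.16, under R 4.3.3 with limma 3.58.1, with 4 group means over all 12 libraries and robust dispersions. CPM are TMM-scaled. P-values were adjusted by Benjamini-Hochberg over 18289 genes and called under 0.05. Nothing says that replicates came from separate cultures beyond the word biological, so p-values measure the spread between these samples. The floor is a fixed count, and a fold against it carries no error term. The fit was tested on simulated data.

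Genes were named by rule: MTHFD2; the 12 highest and 12 lowest log2 fold changes among called genes whose mean log2 CPM reached 1, more than 3 counts in each wild-type library and groups that do not overlap; 4 called genes per direction with the highest CPM; up to 2 per direction with a group at the floor; up to 3 called members per list and direction (2 if none was called); and the 3 per direction with the smallest interaction p. Other genes were named after their values were seen. The members, lists and motifs were chosen with earlier results of these data known. Some list members are counted but not reported here by name. Promoter sequences are from RefSeq on GRCh38.p14. Alternatives were the replicate block, the 6 wild-type libraries alone, other scalings and filters, a test against a 1.2-fold change, DESeq2 1.42.0 and leaving out each library. Removing length and GC trends (lowess span 0.3, GC known for 98.6% of genes) and leaving out the mitochondrial genome were added after seeing the data.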

Additional observations from a re-analysis of the deposited data

Results flagged for a closer look

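Among the genes named by rule, 36 changed differently over the 2 months in the 2 genotypes, by the interaction term of the edgeR quasi-likelihood fit with Benjamini-Hochberg adjustment over all genes. The values are the wild-type log2 fold change minus that of the knock-out clone, and both share the spread estimated from all 12 libraries. The wild-type libraries that chose many of these genes also enter this test. The classes below go by the sign of each fold change only. In the knock-out the change was called only in EPS8L3, HAS3, PER2, CRY1, NCAM1, CAPN6, KRT7, LCN2, SUSD2 and ANKRD1. Knock-out log2 fold changes were as small as -0.0025 in PALLD and 0.0415 in EHF. A positive fold change in the wild type and a negative one in the knock-out were seen for UBBP4 (3.5, adjusted p 0.000345), EPS8L3 (2.56, adjusted p 2.05e-05), MUC13 (2.21, adjusted p 0.000627), DNAH2 (1.72, adjusted p 0.00501), HNF4A (1.6, adjusted p 9.79e-05), SPATA18 (2.3, adjusted p 0.0479), IFI6 (0.964, adjusted p 0.0497) and HSPH1 (0.534, adjusted p 0.0135). In the same class were NDRG1 (0.954, adjusted p 0.0243), SLC2A1 (0.81, adjusted p 0.0157), ID2 (0.486, adjusted p 0.0458), ICAM1 (1.29, adjusted p 0.00501), TIMP3 (1.7, adjusted p 0.000231), H1-2 (0.848, adjusted p 0.0181) and PALLD (1.16, adjusted p 4.6e-05). Both fold changes were positive, with that of the wild type larger, for DPEP1 (2.86, adjusted p 3.67e-05), HAS3 (1.11, adjusted p 0.000264), PKIB (1.41, adjusted p 0.0137), TMEM150C (1.38, adjusted p 0.0103), BMP4 (0.728, adjusted p 0.00529) and AREG (0.919, adjusted p 0.00608). The clock genes fell in both genotypes, and less in the wild type: PER2 (0.859, adjusted p 0.000603) and CRY1 (0.992, adjusted p 0.000104). A negative fold change in the wild type and a positive one in the knock-out were seen for NCAM1 (-2.53, adjusted p 1.46e-06), CREB3L2 (-0.503, adjusted p 0.0326), SMAD6 (-0.904, adjusted p 0.0014), CAPN6 (-3.27, adjusted p 1.26e-06) and EHF (-1.28, adjusted p 1.49e-05). Both fold changes were negative, with that of the wild type further from 0, for KRT7 (-1.19, adjusted p 0.0012), LCN2 (-1.0, adjusted p 0.00336), SMAD7 (-1.27, adjusted p 0.00217), CLDN2 (-1.56, adjusted p 0.000231), KRT80 (-1.21, adjusted p 0.00112), SUSD2 (-0.951, adjusted p 0.023), ANKRD1 (-2.56, adjusted p 0.0144) and SPARC (-0.822, adjusted p 0.0131).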

How the results depend on the processing

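Across the alternatives, 0 of the named genes changed sign where called, and 69 of the 115 named genes that were called stayed called in all 17 settings. The 1183 wild-type calls became 578 in a fit of the 6 wild-type libraries alone, where the knock-out libraries do not enter the spread. Against a 1.2-fold change, which asks for a larger change, 372 were called. With single libraries left out the number ranged from 627 to 1399. After length and GC trends were removed, 1709 genes were called, and DESeq2 called 1518. The 233 genes changed by at least 2-fold became 147 when at least 1 CPM in 3 libraries was required, which leaves fewer genes to test, and ranged from 179 to 252 with single libraries left out. The 235 interaction calls became 423 with no filter on low counts, 106 against a 1.2-fold change, 398 after length and GC trends were removed and 464 with DESeq2, and ranged from 135 to 444 with single libraries left out. The cause of these moves was not tested. The replicate block gave 1123 wild-type calls over 12 libraries, 845 over 6, and 217 interaction calls. Replicate numbers share only a number: the correlation of deviations between same-numbered initial and final libraries was 0.226, 0.197 and -0.00583 over 12537 genes, and replicate 3 did not correlate best with its own number. List medians moved by more than 1 SD in 24 of 577 settings, and chromosome medians in 3 of 168. With 3 libraries per group, transcripts under about 3 counts per library have no measured level.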

Other observations

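Of the neighbouring APOBEC3 genes on chromosome 22, which code for cytidine deaminases that restrict retroviruses and retroelements, APOBEC3B, APOBEC3C, APOBEC3F and APOBEC3G fell by the final harvest of the wild type, and APOBEC3D and APOBEC3H were tested and not called. These genes were singled out after their values were seen, and 3.42% of all genes tested were called lower. Nothing is read from the number of them that fell. APOBEC3G, one of the genes named above, had 4, 4.27 and 4.81 CPM initially and 1.6, 1.12 and 1.19 CPM finally. APOBEC3F (39040604 to 39055972) went from 35.7 ± 2.3 to 24.6 ± 0.844 CPM (log2 fold change -0.54, adjusted p 0.000623 in edgeR's quasi-likelihood test), APOBEC3C from 108 ± 5.92 to 81.5 ± 3.07 CPM (-0.41, adjusted p 0.00673) and APOBEC3B from 9.16 ± 1.05 to 6.61 ± 0.746 CPM (-0.47, adjusted p 0.0315). The call of APOBEC3B was lost in 4 of 6 fits with single libraries left out. Reads of these similar genes may be shared between them. In the knock-out clone APOBEC3G also fell, while the other 3 were not called there.

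Nuclear copies of mitochondrial sequence on chromosome 1 moved with the mitochondrial genes. MTND2P28 had 105, 77.3 and 112 CPM initially and 297, 212 and 180 CPM finally (log2 fold change 1.23), and MTCO2P12 went from 0.625 ± 0.153 to 1.51 ± 0.254 CPM (log2 fold change 1.27). Their parents MT-ND2 and MT-CO2 had 1.18 and 1.01, and reads of parent and copy may not be separated by the counting. Both copies were singled out after their values were seen.

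Whole chromosomes hardly shifted in level. Over genes whose mean log2 CPM reached 1, the median log2 fold change of chromosomes 1 to 22 and X lay between -0.03 (chromosome 21) and 0.05 (chromosome 4), while the 23 genes used from the mitochondrial genome had 0.625. On chromosome 4, 32 genes rose and 12 fell (9.69% called), among them PALLD and ANXA10 on its long arm. On chromosome 17, 12 rose and 40 fell (6.66% called), and on chromosome 11, 10 rose and 31 fell (5.64%). On chromosome 12, 30 rose and 48 fell, which is 11.3% of the 693 genes used there. Over chromosomes 1 to 22 and X the share called ran from 5.17% (chromosome 16) to this 11.3%. The 6.47% of all genes tested also covers genes of lower level, so it is not the share to set beside these. No rule chose the chromosomes described here. These are descriptions with no test.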
